A study of Homo sapiens with 4 samples.

Results

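MDM2, its relative MDM4 and 7 target genes of p53 (BTG2, TP53INP1, ZMAT3, SESN1, GDF15, TP53I3 and FDXR) were followed in clusters of A549 cells after knockdown of DUSP23. They were taken from the deposited FPKM table (fragment numbers adjusted for the length of the transcript and the size of the library) by gene symbol. All 9 symbols matched 1 gene ID each, with 35 listed transcripts in all, out of 16371 genes and 56389 transcripts. A549 is an established human lung adenocarcinoma cell line, which retains wild-type p53. The 2 shMock libraries came from clusters labelled wild type that carried the control construct, and the 2 shDUSP23 libraries came from clusters labelled DUSP23 knockdown. All 4 were A549 total RNA made into mRNA libraries, and no drug treatment is named in the labels. The hairpin sequence, the clonality of the lines, what SUS in the titles stands for and whether replicates were separate cultures are unstated in the sources used here, so a p-value here reflects nothing beyond the spread among these 4 libraries.

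p53 is a transcription factor that is kept at a low level by MDM2, a ubiquitin ligase that marks it for destruction, and is held inactive by MDM4, which binds its activation domain. MDM2 is itself a p53 target, so that the pair forms a negative feedback loop. MDM2 has an upstream promoter that does not need p53 and a second promoter in its first intron that carries p53 binding sites. The other 7 genes are textbook p53 targets that act in growth arrest, cell death, redox and iron-sulfur metabolism, nutrient signalling and secretion. Only RNA was measured, so neither the amount nor the activity of p53 protein is known here.

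DUSP23, the targeted gene, had 29.96 and 35.9 FPKM in shMock and 1.71 and 2.71 FPKM in shDUSP23. Equal steps among low FPKM values gave totals of 21274800 and 25243800 fragments for shMock and 26997400 and 42236600 for shDUSP23. The largest library, shDUSP23 2, also had the most transcripts at 0, 9946 against 2930 to 4814 in the others. Mitochondrial transcripts made up 12.3% and 13.1% of summed FPKM in shMock and 8.12% and 7.97% in shDUSP23, and their part in the results was not tested. Keratins 8, 18 and 7, epithelial markers, lay between 370 and 1153 FPKM in every library. The 6 epithelial markers summed to 2650 and 2561 FPKM in shMock and to 2014 and 2085 FPKM in shDUSP23, with CDH1 at 22.4 and 21.5 FPKM in shMock and 6.20 and 8.14 FPKM in shDUSP23, and EPCAM at 5.83 and 7.05 FPKM in shMock and 3.47 and 3.999 FPKM in shDUSP23. Of 4 lung lineage markers NAPSA alone had values, at 3.22 FPKM or less. Of 4 leukocyte markers CD68 had 24.4 and 23.5 FPKM in shMock and 94.9 and 130.9 FPKM in shDUSP23 whereas CD14 had 4.68 and 8.005 FPKM in shMock and 0.983 and 0.995 FPKM in shDUSP23, so that this pair went opposite ways (its sum, mostly CD68, was 29.1 to 31.5 FPKM in shMock and 95.9 to 131.9 FPKM in shDUSP23). The 2 fibroblast markers with values summed to at most 4.75 FPKM. PTPRC, CD3E, COL1A2, DCN and the 3 endothelial markers were not found by symbol among the listed genes. The part of other cell types in the results below was not tested. In bulk RNA, fewer cells of a kind and less RNA per cell cannot be told apart.

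Sequence just upstream of the MDM2 starts is shown because the listed MDM2 transcripts fall into an upstream and an intron 1 group, and because a p53 site of the intron 1 promoter lies in one of these windows. Both are on the plus strand, from RefSeq's GRCh38.p14 table of promoters. The upstream window covers chr12:68807922-68808171 and the intron 1 window chr12:68808767-68809001. Capitals mark the extent of a pair of p53 half-sites, which has 2 mismatches to the consensus. Only a pair that met the search rule given below is marked, so lower case does not mean that no other p53 site lies there.
MDM2 upstream window: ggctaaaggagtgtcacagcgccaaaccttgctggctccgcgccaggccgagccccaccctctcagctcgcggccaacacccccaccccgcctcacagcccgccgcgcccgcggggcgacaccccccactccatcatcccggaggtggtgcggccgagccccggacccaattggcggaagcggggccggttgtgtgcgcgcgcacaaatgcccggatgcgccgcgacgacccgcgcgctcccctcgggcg
MDM2 intron 1 window: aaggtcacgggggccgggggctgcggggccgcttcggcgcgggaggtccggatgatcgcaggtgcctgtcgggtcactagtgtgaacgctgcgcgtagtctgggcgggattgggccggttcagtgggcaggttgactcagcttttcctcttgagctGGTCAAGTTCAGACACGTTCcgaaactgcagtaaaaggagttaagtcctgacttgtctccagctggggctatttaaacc

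The search took the 10-letter p53 half-site consensus, which reads the same on both strands, and asked for 2 half-sites at most 13 bases apart with at most 2 mismatches in all and the central C and G of each kept. This mismatch limit was chosen after the matches in these genes had been seen. Over 300-base windows (250 bases before a start and 50 after it), 2.93% of the 35116 windows in the table held such a pair. The 15 windows of 8 of the genes held it in 3, of which 2 were overlapping windows of MDM2 intron 1 with the same site, and TP53INP1 was not searched. The MDM2 site, at chr12:68808923-68808942, ends 60 bases before the first listed start of the intron 1 group. The other match lay in FDXR on the minus strand at chr17:74872996-74873025, with a spacer of 10 bases in lower case. It lies just upstream of the listed start of FDXR-201 (74872994). The listed starts of FDXR-208 (74873006), FDXR-218 (74873013) and FDXR-219 (74873015) fall inside it.
FDXR site: GGGCGGGCCCgggcaggagcGGGCTTGCCC
No match was found in the windows of BTG2, TP53I3, GDF15, SESN1, ZMAT3 and MDM4, which says only that these letters were not in those windows. A match is a description of the sequence, and binding was not measured.

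In the shDUSP23 clusters 3 of the 9 genes rose (BTG2, TP53INP1 and MDM2), 2 fell (FDXR and TP53I3) and 4 did not pass the test (ZMAT3, SESN1, GDF15 and MDM4). BTG2, an antiproliferative gene of the BTG/TOB family, had the largest fold of the 9, with a mean ± SD of 7.01 ± 0.34 FPKM in shMock and 26.6 ± 0.43 FPKM in shDUSP23 (n = 2 in each group, as in all later values of this form). MDM2 rose from 80.2 ± 4.47 to 126.3 ± 1.13 FPKM. The test was limma on log2(FPKM + 0.5), with a Benjamini-Hochberg adjusted p under 0.05 over the 13691 genes whose mean reached 1 FPKM. Of these, 45.3% were called, so the 5 of 9 called here (55.6%) are near the share in all genes. The median log2 fold change (shDUSP23 minus shMock) was -0.18 over the 9 genes and 0.03 over all tested genes. The groups did not overlap in 7 of the 9, 4 higher and 3 lower, where 75.5% of all tested genes had no overlap (39.3% higher and 36.2% lower). Of all tested genes 23.1% were called higher and 22.2% lower.

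**Figure D1:**
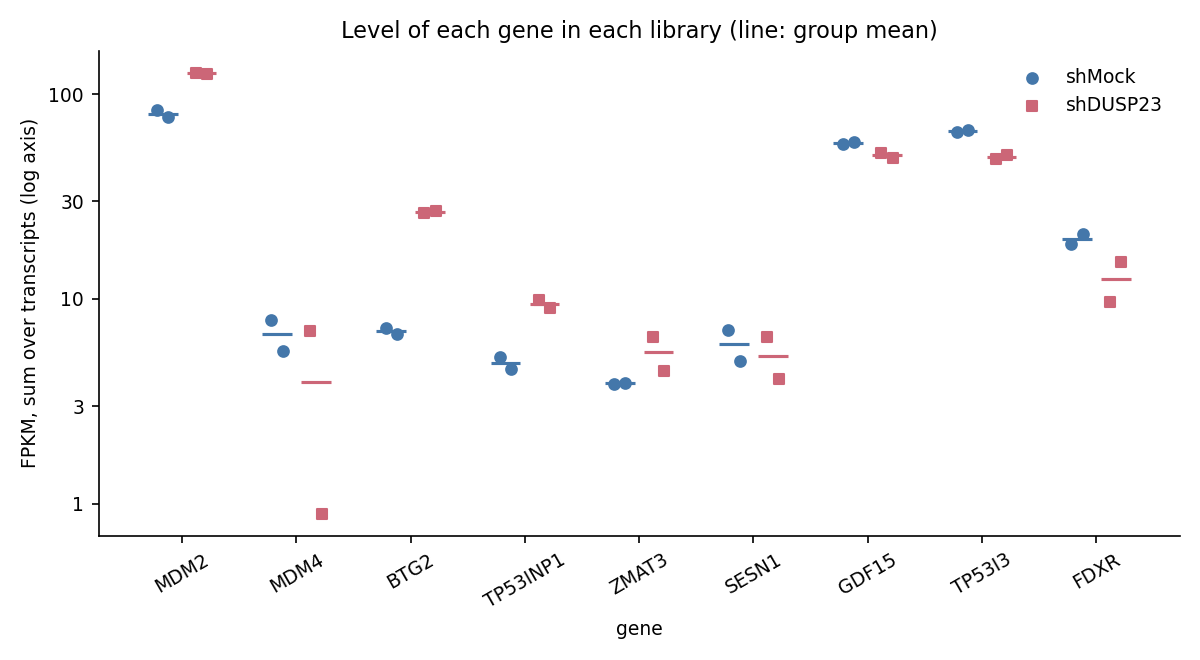
FPKM of each gene summed over its transcripts (log axis), with 1 point per library, circles for shMock and squares for shDUSP23, and a line at the group mean. Both shDUSP23 libraries lie above both shMock libraries for MDM2, BTG2, TP53INP1 and ZMAT3, and the point far below the others is MDM4 in shDUSP23 2, at 0.896 FPKM.

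Because the sum of all listed FPKM was lower in shDUSP23, a scale on which the 4 sums are equal (equal sums) was tried too, which shifted the all-gene median on the log2 scale from 0.03 to 0.37. Higher genes then made up 76.2% of all called genes, in place of 51.0%. On that scale 4 of the 9 genes (44.4%) were called, all higher: BTG2, TP53INP1, MDM2 and ZMAT3. Of all genes tested on it 47.2% were called, 35.9% higher and 11.3% lower. The falls of FDXR and TP53I3 were not called there. The rises of MDM2, BTG2 and TP53INP1 and the falls of FDXR and TP53I3 kept their sign on each scale tried.

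Within shMock the genes ranked by FPKM, which is per length, as MDM2, TP53I3, GDF15, FDXR, BTG2, MDM4, SESN1, TP53INP1 and ZMAT3. The first 4 were separated by more than their range over the 2 libraries. The ranges of BTG2, MDM4 and SESN1 (4.98 to 7.92 FPKM over the 3) overlapped, as did those of SESN1 and TP53INP1. The first place of MDM2 in shMock depended on its noncoding transcripts. With protein-coding transcripts alone it had 50.4 and 40.8 FPKM there, below TP53I3 (59.99 and 63.3 FPKM) and GDF15 (57.3 and 58.4 FPKM). In shDUSP23 MDM2 was first with protein-coding transcripts alone (72.5 and 71.8 FPKM) and stayed first with all listed transcripts. GDF15 (48.9 to 51.6 FPKM) and TP53I3 (48.4 to 50.7 FPKM) then overlapped, BTG2 at 26.3 and 26.9 FPKM lay above FDXR, FDXR (9.70 to 15.2 FPKM) overlapped TP53INP1 (9.03 to 9.91 FPKM), and ZMAT3, SESN1 and MDM4 overlapped at the low end.

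MDM2 (ENSG00000135679) lies at chr12:68808177-68850686 on the plus strand of GRCh38, as the deposited table gives it. It had 83.3 and 77.0 FPKM in shMock and 127.1 and 125.5 FPKM in shDUSP23, so that both knockdown libraries lay above both controls. On the log2 scale MDM2 rose by 0.65 (SE 0.11; limma with Benjamini-Hochberg adjustment, adjusted p = 0.00208), with a 95% interval from 0.40 to 0.91. The gene remained called under each of the 17 alternative settings, with log2 fold changes from 0.59 to 0.99 and adjusted p from 0.000333 to 0.0197.

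The 10 listed MDM2 transcripts were grouped by start, joining starts within 500 bases of each other, a grouping chosen after the table had been seen. The upstream group (MDM2-202, MDM2-204 and MDM2-213) starts in exon 1 of MDM2-202, the full-length coding transcript. The intron 1 group (MDM2-225, MDM2-211, MDM2-212 and MDM2-224) starts between positions 68809002 and 68809212 of chromosome 12, in intron 1 or, for MDM2-224, at the start of exon 2, just downstream of the intron 1 window printed above. The intron 1 group had 34.1 and 27.7 FPKM in shMock and 49.3 and 52.1 FPKM in shDUSP23. The upstream group had 20.8 and 18.6 FPKM in shMock and 31.6 and 22.3 FPKM in shDUSP23. Both groups of transcripts were higher in both knockdown libraries than in either control, with shDUSP23 2 close to the controls in the upstream group. Of the exon bases of MDM2-225, 96.6% lie in exons of MDM2-202. The share is 91.7% for MDM2-211, 79.3% for MDM2-212 and 100% for MDM2-224. The division of fragments between these groups is thus largely an estimate of the authors' quantifier, and promoter output was not measured.

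The log2 fold change was 0.71 (SE 0.14) for the intron 1 group, which passed the limma test over 22960 start groups of all genes (adjusted p = 0.0322; 17.8% of start groups were called, 8.67% higher and 9.16% lower). It was 0.42 (SE 0.20) for the upstream group, which did not pass (adjusted p = 0.205). This is no evidence that the starts differ in response: the log2 ratio of intron 1 to upstream transcripts was 0.71 and 0.58 in shMock and 0.64 and 1.23 in shDUSP23, which overlap (two-sided exact permutation test p = 0.667, where 2 against 2 libraries cannot go below 0.333). The intron 1 call was lost without any 1 of the libraries (limma adjusted p = 0.0653 to 0.157) and in eBayes without a trend (0.105). The intron 1 group held 36.0% to 41.5% of summed MDM2 FPKM in the 4 libraries and the upstream group 17.7% to 25.0%. These shares, the ratio and the fold changes by start all rest on the quantifier's division of shared sequence.

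**Figure D2:**
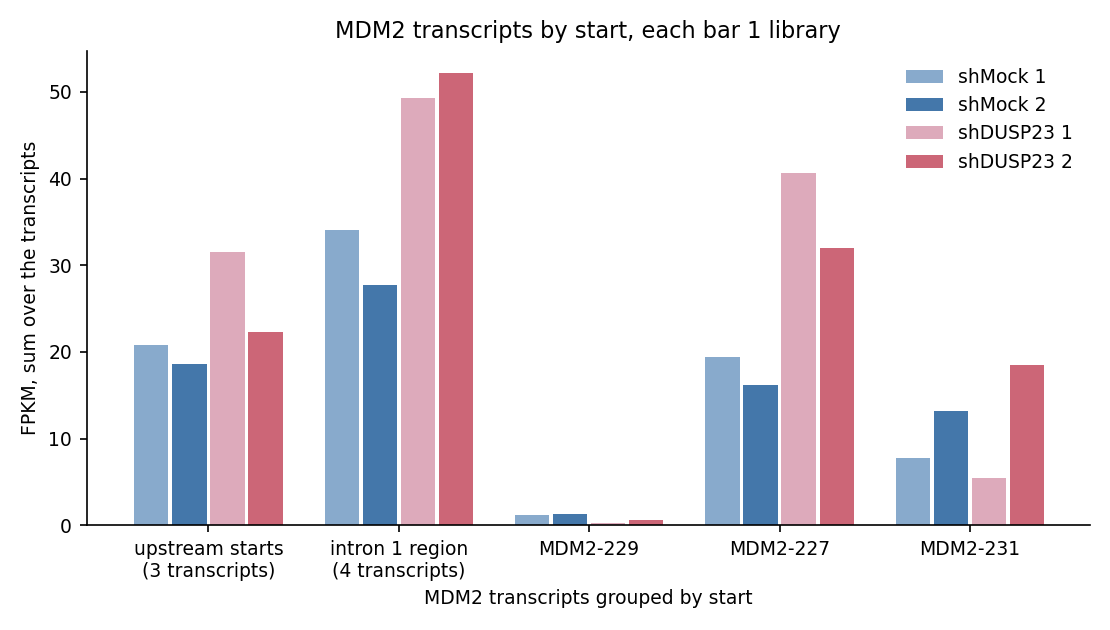
FPKM of MDM2 transcripts grouped by their start, each bar 1 library (shMock blue, shDUSP23 red). In the intron 1 region the shDUSP23 bars reach 49.3 and 52.1 FPKM against 34.1 and 27.7 FPKM in shMock, and MDM2-231 differs as much between libraries of 1 group as between groups.

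The short noncoding transcripts MDM2-227 and MDM2-231 lie wholly in the noncoding part of exon 11 of MDM2-202, the last exon. MDM2-227 had 19.4 and 16.2 FPKM in shMock and 40.6 and 32.0 FPKM in shDUSP23, without overlap. As a start group of its own it also passed, with a larger log2 fold change than the intron 1 group (1.01, SE 0.17; limma, adjusted p = 0.0248), and it lost the call without shMock 1 (adjusted p = 0.09995), shMock 2 (0.158) or shDUSP23 1 (0.0542) and in eBayes without a trend (0.0787). MDM2-231 had 7.82 and 13.2 FPKM in shMock and 5.42 and 18.5 FPKM in shDUSP23, and its groups overlapped. Since their exons lie wholly within those of MDM2-202, the division of fragments between these transcripts is an estimate of the authors' quantifier. With protein-coding transcripts alone MDM2 had 50.4 and 40.8 FPKM in shMock and 72.5 and 71.8 FPKM in shDUSP23 (log2 fold change 0.66; limma, adjusted p = 0.00738).

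MDM4 (ENSG00000198625, chr1:204516383-204558120, plus strand), the second p53 inhibitor, had 7.92 and 5.58 FPKM in shMock and 6.99 and 0.896 FPKM in shDUSP23. The first knockdown library lay within the control range and the second far below it. The log2 fold change was -1.15 (SE 0.64; limma, adjusted p = 0.171), and it rested on shDUSP23 2: without that library it was 0.07 (adjusted p = 0.845) and without shDUSP23 1 it was -2.36 (adjusted p = 3.17e-05). MDM4-203, its main coding transcript, had 3.27, 3.46 and 2.86 FPKM in the other libraries and was listed at 0 in shDUSP23 2. By its length in GENCODE 29 those values stood for about 702, 879 and 777 fragments. MDM4-206, a short coding transcript with an internal start, had 0.183 FPKM in shMock 1, was listed at 0 in shMock 2, and had 2.31 and 0.185 FPKM in shDUSP23. MDM4-203 was thus at 0 in the library with the most fragments and the most transcripts at 0. Whether that 0 is a failed estimate was not tested. MDM4-203 was not alone in being low there. MDM4-210 was listed at 0 in shDUSP23 2, against 0.776, 0.872 and 0.652 FPKM in shMock 1, shMock 2 and shDUSP23 1. MDM4-211 had 0.161 FPKM in shDUSP23 2, against 1.81, 0.986 and 0.503 FPKM. MDM4-217, at 0.550 FPKM in shDUSP23 2, and MDM4-206 lay within the range of the other libraries.

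Of the 7 targets, BTG2 and TP53INP1 rose. BTG2 (ENSG00000159388, chr1:203305519-203309602, plus strand) had 7.25 and 6.76 FPKM in shMock and 26.3 and 26.9 FPKM in shDUSP23, 3.80 times higher by the group means. The spread within each group was under 1 FPKM. Its log2 fold change was 1.85 (SE 0.15; limma, adjusted p = 7.40e-05), with a 95% interval from 1.52 to 2.19 and values from 1.75 to 2.22 over the 17 alternatives, all of them called. It has 1 listed transcript, so no division between transcripts enters its value.

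TP53INP1 (ENSG00000164938, chr8:94925972-94949378, minus strand), which encodes a nuclear protein of stress-induced death and autophagy, had 5.21 and 4.55 FPKM in shMock and 9.91 and 9.03 FPKM in shDUSP23. It rose by 0.89 on the log2 scale (SE 0.19; limma, adjusted p = 0.00531), and the groups did not overlap. Without shMock 2 the call was lost (log2 fold change 0.80, adjusted p = 0.0545). Of its 2 coding transcripts, 1 was higher in both knockdown libraries than in either control. TP53INP1-202 had 2.33 and 1.28 FPKM in shMock and 4.61 and 6.72 FPKM in shDUSP23. TP53INP1-201, which encodes a longer protein, had 2.88 and 3.27 FPKM in shMock and 5.30 and 2.31 FPKM in shDUSP23, so that its groups overlapped. TP53INP1-202 held 46.5% and 74.4% of the summed FPKM in shDUSP23 and 44.7% and 28.2% in shMock.

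ZMAT3 (ENSG00000172667, chr3:178960121-179072215, minus strand), which encodes an RNA-binding zinc finger protein, had 3.85 and 3.90 FPKM in shMock and 6.53 and 4.44 FPKM in shDUSP23. Both knockdown values were above both controls, but they lay far apart, and the log2 fold change of 0.43 (SE 0.24) did not pass (limma, adjusted p = 0.1704). It passed with equal sums (log2 fold change 0.77, adjusted p = 0.0391) and without shDUSP23 2 (0.69, adjusted p = 0.0361).

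TP53I3 (ENSG00000115129, chr2:24077433-24085215, minus strand), a quinone oxidoreductase gene, had 65.0 and 67.1 FPKM in shMock and 48.4 and 50.7 FPKM in shDUSP23. It fell by 0.41 on the log2 scale (SE 0.11; limma, adjusted p = 0.0196). With equal sums the difference was -0.08 (adjusted p = 0.631). The call was also lost without shMock 1 (adjusted p = 0.0677), shMock 2 (0.0982) or shDUSP23 1 (0.0633) and in eBayes without a trend (0.0688). Among its 5 transcripts, TP53I3-202 had 26.4 and 22.7 FPKM in shMock and 9.63 and 15.0 FPKM in shDUSP23, whereas TP53I3-201, which encodes a protein of the same length, had 18.4 and 18.5 FPKM in shMock and 22.3 and 18.6 FPKM in shDUSP23. TP53I3-204 had 3.75 and 18.3 FPKM in the shMock libraries, and 6.07 FPKM and a listed 0 in the shDUSP23 libraries, so the estimates of single transcripts differed severalfold between replicates.

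FDXR (ENSG00000161513, chr17:74862497-74873015, minus strand), the mitochondrial ferredoxin reductase of iron-sulfur cluster and steroid synthesis, had 18.6 and 20.8 FPKM in shMock and 9.70 and 15.2 FPKM in shDUSP23. It fell by 0.67 on the log2 scale (SE 0.21; limma, adjusted p = 0.0308), and its knockdown libraries differed more from each other than the controls did. The call was lost with equal sums (-0.35, adjusted p = 0.204), with protein-coding transcripts alone (adjusted p = 0.0929), in eBayes without a trend (0.0743), and without shMock 1 (0.0948), shMock 2 (0.172) or shDUSP23 1 (0.111). The log2 fold change was -0.36 without shDUSP23 1 and -0.98 without shDUSP23 2. Its main coding transcript, FDXR-201, had 13.04 and 16.2 FPKM in shMock and 7.60 and 13.3 FPKM in shDUSP23, with overlap. FDXR-219, the second most abundant in shMock, had 2.75 and 2.77 FPKM there, was listed at 0 in shDUSP23 1 and had 1.83 FPKM in shDUSP23 2.

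**Figure D3:**
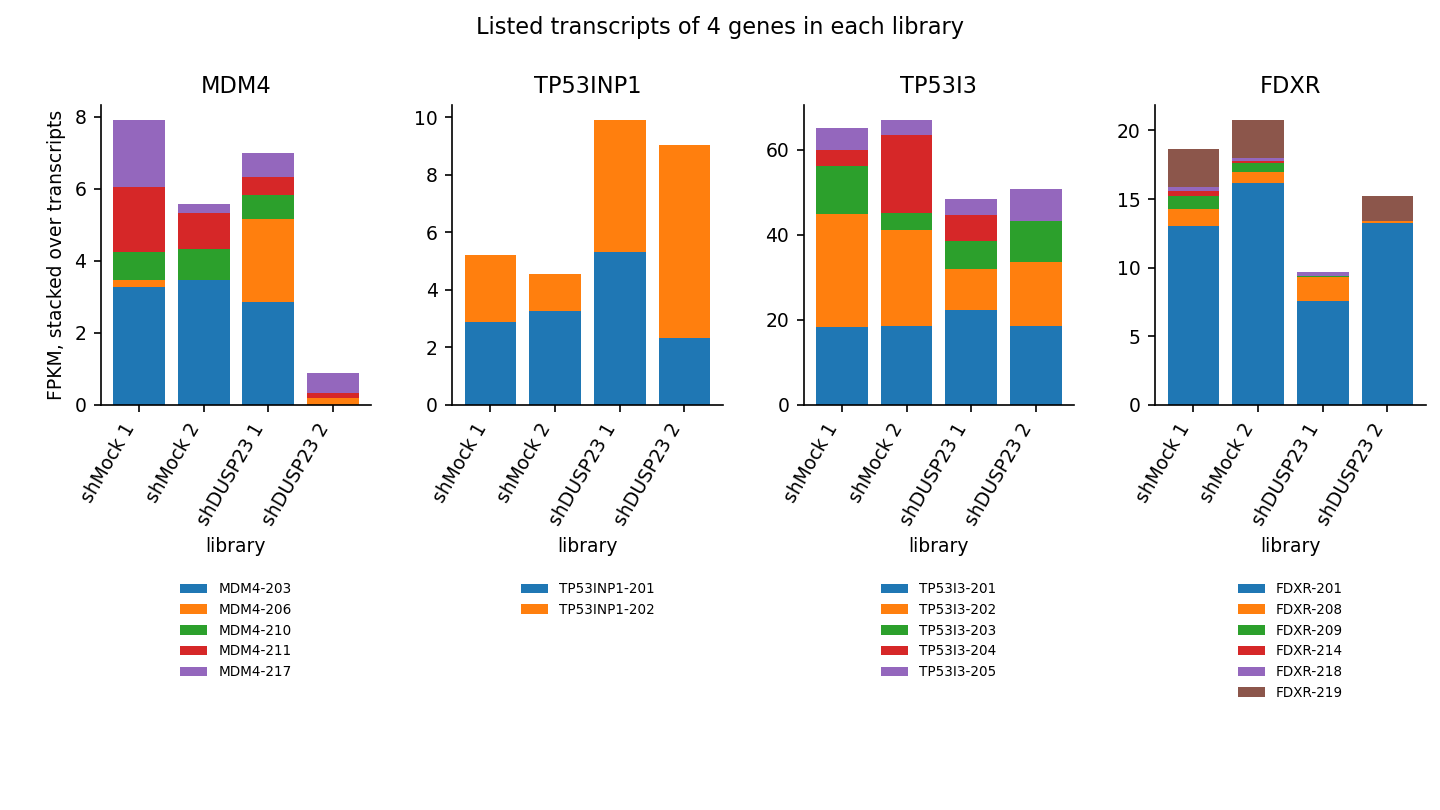
FPKM of the listed transcripts of MDM4, TP53INP1, TP53I3 and FDXR, stacked for each of the 4 libraries. In shDUSP23 2 MDM4-203 is at 0, and TP53INP1-202 makes up 74.4% of the TP53INP1 bar.

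GDF15 (ENSG00000130513, chr19:18386158-18389176, plus strand), a secreted cytokine of the TGF-beta superfamily, had 57.3 and 58.4 FPKM in shMock and 51.6 and 48.9 FPKM in shDUSP23. The groups did not overlap, but the log2 fold change of -0.20 (SE 0.12) did not pass (limma, adjusted p = 0.185), with a 95% interval from -0.46 to 0.06. It was 0.13 with equal sums and -0.37 once GC content and length had been corrected for, where it passed (adjusted p = 0.0290).

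SESN1 (ENSG00000080546, chr6:108986437-109094819, minus strand), which encodes a sestrin that restrains mTORC1, had 7.02 and 4.98 FPKM in shMock and 6.49 and 4.09 FPKM in shDUSP23. The ranges overlapped widely, and the log2 fold change was -0.18 (SE 0.27; limma, adjusted p = 0.602), with a 95% interval from -0.79 to 0.42 and the opposite sign with equal sums (0.13). SESN1-202 held 69.5% to 80.5% of its summed FPKM in the 4 libraries and SESN1-204, from a start farther upstream, held the rest.

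**Figure D4:**
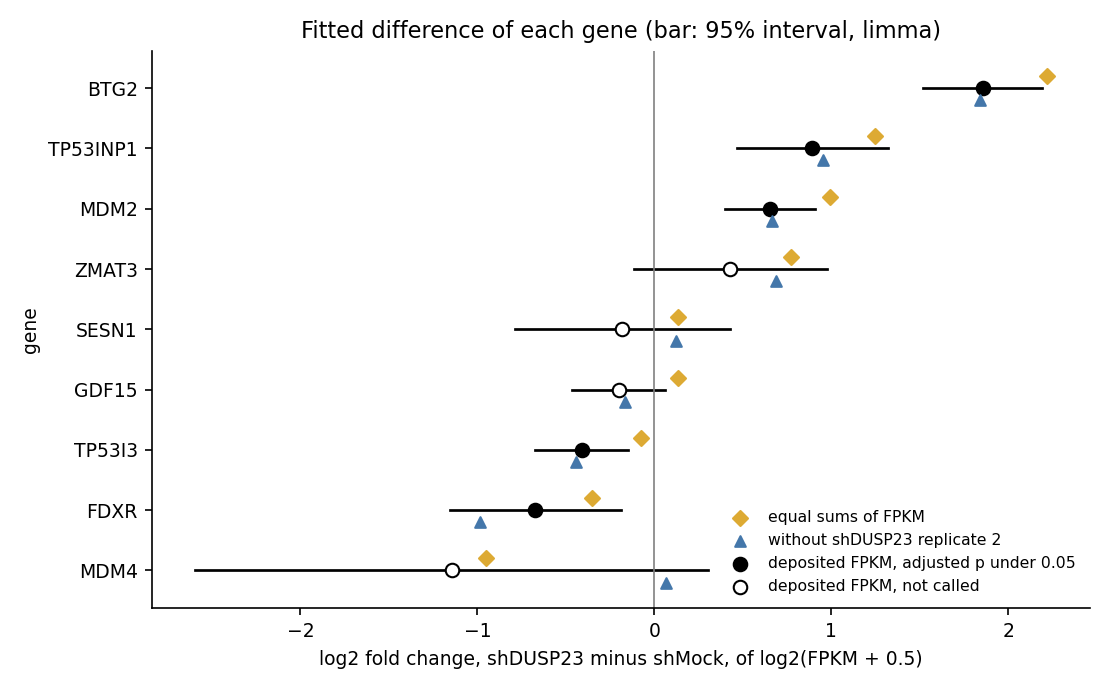
Log2 fold change of each gene (shDUSP23 minus shMock) with its 95% interval, filled where the limma adjusted p was under 0.05. Diamonds give the value with equal sums and triangles the value without shDUSP23 2, where MDM4 lies at 0.07 against -1.15 with all 4 libraries.

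Taken one by one, 24 of the 35 transcripts had a mean of at least 1 FPKM and were tested with 37453 transcripts of all genes, of which 4.15% were called (1.7% higher and 2.45% lower). Of the 24, BTG2-201 alone was called (limma, adjusted p = 0.0285), and 0 were lower. At an unadjusted p under 0.05, 5 were higher (20.8%) and 1 lower (4.17%), beside 12.5% higher and 12.96% lower of all tested transcripts. MDM2-225 had 25.8 and 21.0 FPKM in shMock and 38.7 and 36.5 FPKM in shDUSP23 (log2 fold change 0.68, adjusted p = 0.0895). MDM2-202 had 17.9 and 14.6 FPKM in shMock and 25.99 and 21.8 FPKM in shDUSP23 (log2 fold change 0.55, adjusted p = 0.163). Both are coding, and for both the knockdown libraries lay above the controls.

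With the FPKM as deposited, the calls went both ways among other p53 targets, as they did among the 9. The 2 falls among the 9 were not called with equal sums. In a list of 39 targets outside the 9, all of them tested, 19 rose (48.7%), 6 fell (15.4%) and 14 did not pass, where 23.1% of all tested genes were called higher and 22.2% lower. The median log2 fold change was 0.25, beside 0.03 for all tested genes. The list was chosen with earlier results of these data known, so these shares describe the listed genes and are no independent sample of p53 targets. With equal sums 22 rose (56.4%) and 3 fell (7.69%), where 35.9% of all genes were higher and 11.3% lower on that scale, with medians of 0.59 in the list and 0.37 in all genes.

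Of the targets that rose, the 4 with the smallest p were PHLDA3, FAS, CD82 and EPHA2. FAS, a death receptor, rose from 34.5 ± 0.96 to 85.5 ± 2.26 FPKM (log2 fold change 1.298). PHLDA3, an inhibitor of AKT, rose from 37.4 ± 1.21 to 123.3 ± 23.8 FPKM (1.69). The tetraspanin gene CD82 rose from 10.3 ± 3.71 to 48.9 ± 5.39 FPKM (2.24), and the ephrin receptor kinase gene EPHA2 rose from 27.1 ± 3.27 to 69.0 ± 5.34 FPKM (1.33). Each of these 4 had a limma adjusted p of 0.000197 or less and remained called under all 17 alternatives.

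Of the 6 targets that fell, the 4 with the smallest p are given. DDIT4, an inhibitor of mTORC1, went from 158.5 ± 18.7 to 80.1 ± 2.92 FPKM (log2 fold change -0.98). TRIAP1, a mitochondrial survival factor, fell from 52.8 and 62.7 FPKM to 29.9 and 28.1 FPKM (-0.98), and PERP, a membrane protein of desmosomes and cell death, fell from 81.8 ± 3.13 to 45.1 ± 2.66 FPKM (-0.85). RPS27L, a ribosomal protein paralog, fell from 266.2 ± 40.3 to 191.7 ± 8.16 FPKM (-0.46; limma, adjusted p = 0.0213), but its sign turned on correction for GC content and length (0.13, adjusted p = 0.367) and its call was lost with equal sums (-0.13, adjusted p = 0.388), quantile normalization (0.187), eBayes without a trend (0.0794), without shMock 2 (0.0981) and without shDUSP23 1 (0.0887). The 14 targets that did not pass lay between -0.50 (CYFIP2) and 0.25 (CCNG1).

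Of 17 regulators of p53 or MDM2, all tested, 4 rose (23.5%), 6 fell (35.3%) and 7 did not pass, with a median log2 fold change of -0.28. The share that rose is near the 23.1% called higher among all tested genes, where 22.2% were called lower. With equal sums 5 rose (29.4%) and 4 fell (23.5%), where 35.9% of all genes were higher and 11.3% lower on that scale. The medians were then 0.04 in the list and 0.37 in all genes, so the sign of the list's median depended on the scale. This list too was chosen with earlier results of these data known, so its shares describe the listed genes alone. The 4 that rose with the FPKM as deposited were EP300 and 3 genes of the ASPP family, whose proteins bind p53. TP53BP2 (ASPP2) rose from 9.99 ± 0.92 to 20.05 ± 1.66 FPKM (0.97; limma, adjusted p = 0.00158). PPP1R13B (ASPP1) rose from 2.42 ± 0.37 to 4.69 ± 0.32 FPKM (0.83, adjusted p = 0.0203), and PPP1R13L, the inhibitory member iASPP, rose from 2.06 ± 0.18 to 6.88 ± 3.26 FPKM (1.45, adjusted p = 0.00636). EP300, an acetyltransferase of p53, rose from 13.1 ± 1.35 to 20.4 ± 0.58 FPKM (0.63, adjusted p = 0.00945).

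With that correction PPP1R13B (0.47, limma adjusted p = 0.133) and EP300 (0.28, adjusted p = 0.115) were no longer called. Without shMock 1 the calls of PPP1R13B (adjusted p = 0.136) and PPP1R13L (0.0503) were lost, and without shMock 2 those of PPP1R13B (0.0696) and EP300 (0.0866). RPL5 and RPL11, ribosomal proteins that bind and restrain MDM2, fell, RPL5 with a log2 fold change of -1.57 (SE 0.14) and RPL11 with -1.07 (SE 0.13). The checkpoint kinase genes CHEK1 (-1.10, SE 0.15) and ATM (-0.998, SE 0.16) fell as well. These 4 remained called under all 17 alternatives.

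**Figure D5:**
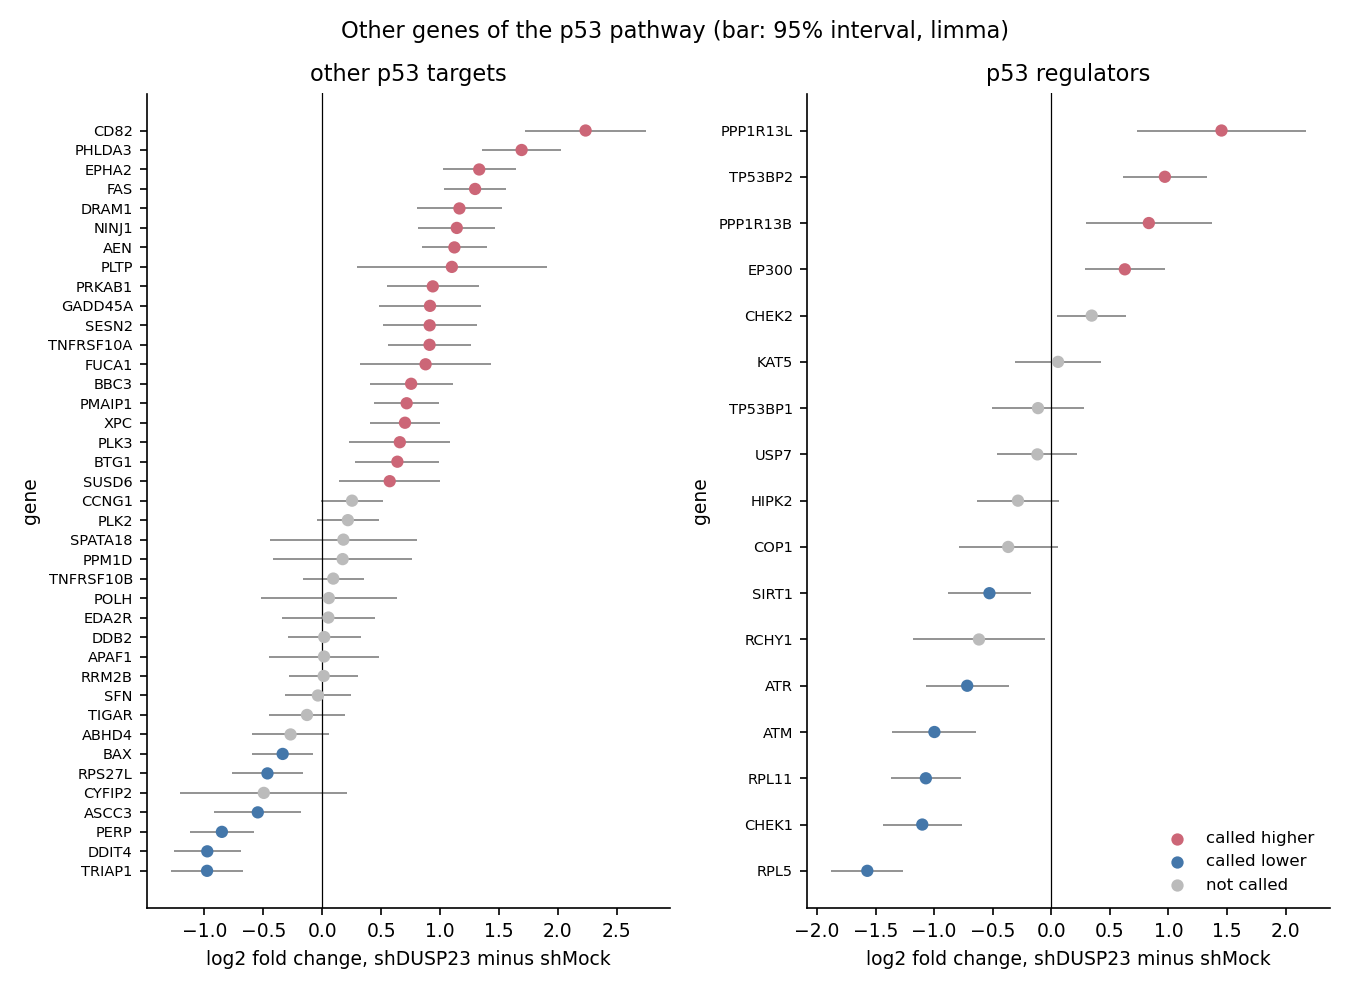
Log2 fold change (shDUSP23 minus shMock) with its 95% interval for 39 other p53 targets (left) and 17 p53 regulators (right), red where called higher, blue where called lower and grey where not called by limma. Red points number 19 on the left and 4 on the right.

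The 3 genes whose profile over the 4 libraries lay nearest to that of MDM2 were SAMD9L, ITGA6 and BSDC1. Likeness was the root mean square distance between centred log2(FPKM + 0.5) values, among tested genes that reached 5 FPKM in the mean of a group, and with 4 libraries in 2 groups it mainly sorts genes by their fold change. SAMD9L, an interferon-induced gene, had 11.6 and 10.6 FPKM in shMock and 18.2 and 18.0 FPKM in shDUSP23 (distance 0.0153). ITGA6, the integrin alpha 6 chain, had 21.7 and 20.1 FPKM in shMock and 32.4 and 33.1 FPKM in shDUSP23 (distance 0.0191). BSDC1 had 18.8 ± 1.06 FPKM in shMock and 29.6 ± 0.54 FPKM in shDUSP23 (distance 0.0199), and with protein-coding transcripts alone its log2 fold change was 0.12 (limma, adjusted p = 0.555) in place of 0.64. Without shMock 2 SAMD9L was no longer called (adjusted p = 0.0587).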

How the data were processed

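The table deposited by the authors gives FPKM for each Ensembl transcript in each library, without read counts. The submitters' processing notes name STAR 2.7.1a, DESeq2 1.32.0 and GRCh38. The quantifier, annotation release, strandedness and any filters are unstated in the sources used here. All 4 columns were used.

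A gene's FPKM is the sum over its listed transcripts. Where the mean over libraries reached 1 FPKM, log2(FPKM + 0.5) was compared with limma 3.58.1 (eBayes with trend) in R 4.3.3, two-sided, with Benjamini-Hochberg adjustment over all tested genes; a change was called at an adjusted p under 0.05. A fold change on this scale understates that of low genes. Transcripts and start groups were fitted likewise. Transcript lengths, GC content and exons came from GENCODE 29, which held 93.6% of the transcripts and 34 of the 35 analysed here. Fragment totals came from 2312 single-transcript genes, in which 90.8% to 92.8% of values up to 50 fragments were whole within 0.1. Python 3.11.15 was used for tables and figures. The fit was checked on simulated data.

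Named were the 9 genes, DUSP23, the 4 genes with the smallest p in each direction of each list, and the 3 genes nearest to MDM2. Genes at the ends of ranges and the markers were named after their values were seen. The members and lists were chosen with earlier results of these data known. Alternatives were pseudocounts of 0.1 and 1 FPKM, no filter or a mean of at least 5 FPKM, equal sums, median-ratio and quantile scaling, eBayes without a trend or robust, the replicate number as a block, protein-coding transcripts alone, and each library left out. A correction of each library by splines (5 degrees of freedom each) on length and on GC content, alone and together with the block, was added after the data had been seen.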

Additional observations from a re-analysis of the deposited data

How the results depend on the processing

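The few libraries limit every call. With 2 libraries a group, the main fit has 2 residual degrees of freedom. Through eBayes, which borrows variance across genes, the p-values and intervals of the gene fit used 8.46 degrees of freedom. Leaving out each library in turn gave 3464 to 6442 changed genes against 6202, with the low values 4038 without shMock 1 and 3464 without shMock 2, and 2 to 6 changed among the 9 genes against 5. Among the 9, eBayes without a trend left 3, without shMock 1 there were 3 and without shMock 2 there were 2. Of their transcripts 1 was changed; this became 4 with a mean of at least 5 FPKM, 3 after correction for GC content and length, and 0 without a trend, with the replicate block, with the block and the correction together, and without any 1 library (0 to 0). At an unadjusted p under 0.05 limma still had 4 transcripts without a trend, 6 with the block, 8 with the block and the correction, and 3 to 9 without 1 library. RPS27L turned from -0.46 to 0.13 after the correction, with or without the block.

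Replicate numbers are shared between the groups, but nothing in the labels says that they mark a shared culture or batch, and with 2 pairs the deviations of same-numbered libraries correlated by 0.05 over 13691 genes. With the replicate block 6707 genes and 6 of the 9 changed, the added call being MDM4 (log2 fold change -1.15, limma adjusted p = 0.028), which was lost again with the block and the correction together (-1.09, adjusted p = 0.0653). The counts of called genes, higher and lower together, for the lists of 39 targets and 17 regulators stayed within 1.5 times of 25 and 10 under each alternative. The balance of higher and lower calls among the regulators changed with equal sums, as given above. Transcripts with a mean under 1 FPKM, such as MDM2-229 with 11, 14, 3 and 12 fragments in shMock 1, shMock 2, shDUSP23 1 and shDUSP23 2, were left out of the transcript test.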
